A study of Rattus norvegicus with 24 samples.

Results

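The polyamine metabolism genes comprised the 9 symbols Odc1, Amd1, Srm, Sms, Azin1, Oaz1, Oaz2, Sat1 and Smox, which were picked out of the table by symbol. All 9 of 9 were among the 13458 gene symbols of the deposited table, on 13 of its 14243 rows, and each was followed by its row with the highest mean over the 24 libraries. Poly-A RNA came from the tibialis anterior (TA), a dorsiflexor muscle of the lower hind limb, in both limbs of 12 aged male Fischer 344 rats (23 ± 1 months, SD). In 9 of these animals the common peroneal nerve of the left limb was silenced by tetrodotoxin (TTX), which blocks voltage-gated sodium channels so that the muscle is not activated to contract. Left limbs were taken after a single infusion of 6 to 7 days (atrophy, n = 3), after such an infusion and 9 days without TTX (recovery, n = 3), or after a second infusion of 5 to 6 days that followed the recovery period (repeated atrophy, n = 3). The right limbs of the same 9 animals received no TTX and formed the pooled control group (n = 9), and both limbs of 3 sham-operated animals gave the sham left and sham right groups (n = 3 each). The 3 sham animals were taken at different times, animal 1 with the atrophy, animal 2 with the recovery and animal 3 with the repeated atrophy animals, so that each sham time has 1 animal. No young animals were included, all animals were male, and the right limb shared its animal with a silenced limb, so that the control group was not untreated at the level of the body.

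Polyamines are small, positively charged molecules that bind RNA and are needed for translation and growth. Ornithine decarboxylase makes putrescine from ornithine, and spermidine and spermine are built from it with a group that comes from decarboxylated S-adenosylmethionine. Acetylation by Sat1 and oxidation by Smox run the pathway backwards, and the antizymes Oaz1 and Oaz2 send ornithine decarboxylase to the proteasome unless the inhibitor Azin1 binds them first. Antizyme protein is set mainly by a frameshift during translation, which RNA levels do not show.

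Silenced limbs held more RNA of the first enzyme, of its protector and of the acetylase than control limbs. In atrophy and in repeated atrophy vs. control, Sat1 rose 6.79-fold and 7.21-fold, Azin1 2.14-fold and 2.56-fold, and Odc1 1.98-fold and 2.49-fold, while Oaz2 fell to 0.714 and 0.684 of the control level. Amd1 fell to 0.554 of control in repeated atrophy, and its difference between repeated atrophy and atrophy did not pass the test. In recovery limbs, Azin1 was 1.92-fold higher than control and Srm stood at 0.534 of control, while Sat1 and both rows of Odc1 did not pass. Rows were called differentially expressed genes (DEGs) where limma on log2 of counts per 1000000 (CPM) plus 1 gave a change of 1.2-fold or more in either direction with a Benjamini-Hochberg adjusted p, over all rows, no higher than 0.05. Fold changes are on that scale. When each left limb was paired with the right limb of its own animal, the calls of these 5 genes in repeated atrophy held (Sat1, Azin1, Odc1, Oaz2 and Amd1), and none of those in atrophy or recovery did. The plot of values by limb shows every library behind these numbers.

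**Figure D1:**
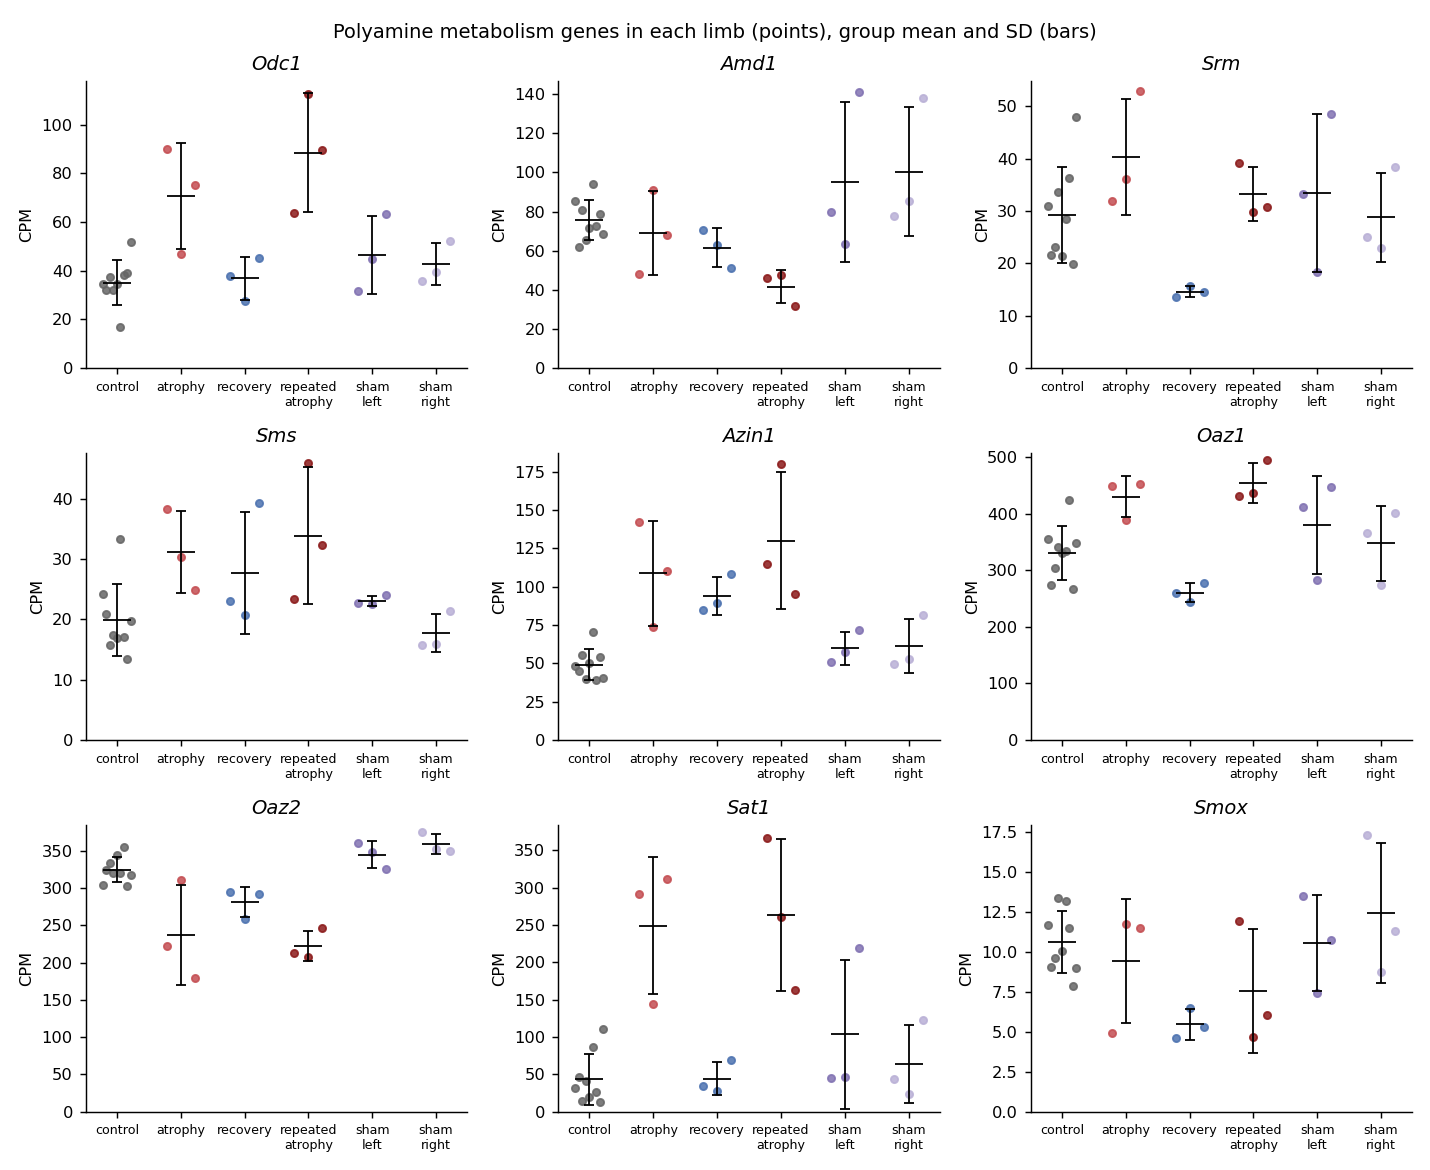
CPM (vertical axes, from 0) of the 9 genes in each limb, 1 point per limb, with the group mean and SD as bars. For Sat1 the 6 silenced left limbs lie between 144 and 366 CPM and the 9 control limbs between 12.5 and 110 CPM, whereas the 3 recovery limbs lie within the control range.

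The step between the lowest values implied 18.9 to 30.9 M counted units per library (M, 1000000; median 26.1), which are what the table counted and need not equal the reads sequenced or aligned. All 8 of 8 myofibre markers were present, and their summed level moved with the condition, from 159675 to 213442 CPM in control and 172002 to 191487 CPM in recovery to 88669.7 to 170755 CPM in atrophy and 113842 to 140623 CPM in repeated atrophy. The repeated atrophy limbs lay below every control limb, while sham limbs went down to 129192 CPM on the left and 141220 CPM on the right. Of the 8 markers, 0 were lower as DEGs in atrophy or repeated atrophy vs. control, and 1 (Mb) was higher in repeated atrophy. The part of the shift in the summed level in the levels of the polyamine genes was not tested. Against control, 4 of 4 markers of silenced or denervated fibres (Chrna1, Chrng, Chrnd, Myog) were higher as DEGs in repeated atrophy and 3 of 4 in atrophy. The left limb of atrophy animal 2 stood nearer to control, with a summed level of these markers of 352 CPM where the other 2 atrophy limbs had at least 1760 CPM and the control limbs reached 329 CPM. The left limb of recovery animal 3 had 618 CPM, above every control limb and above the other recovery limbs (204 and 123 CPM). The median log2 fold change over all rows was 0.22 in atrophy, 0.20 in repeated atrophy, 0.17 in sham left limbs and 0.02 in recovery vs. control. As an alternative, the libraries were brought to a common scale by trimmed mean log ratios (rescaling), which set these medians near 0 and changed the split of DEGs in atrophy from 2844 higher and 327 lower to 631 higher and 688 lower, and in repeated atrophy from 3936 and 876 to 1841 and 1677. In recovery the split went from 617 higher and 467 lower to 798 and 944.

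Per kilobase of transcript in the control limbs, Oaz1 (315 ± 45.1 CPM per kb, SD, n = 9) and Oaz2 (180 ± 9.54) were the most abundant members. Sat1 (37.1 ± 28.9), Amd1 (23.8 ± 3.22), Srm (23.4 ± 7.31), Odc1 (14.8 ± 3.82 for its main row), Sms (12.2 ± 3.67) and Azin1 (11.7 ± 2.38) followed, and from Sat1 to Azin1 the ranges of mean ± SD of neighbours in this order overlapped. Smox was the lowest (4.69 ± 0.858) and lay below Azin1 by more than their SDs. The antizymes thus exceeded the main row of the decarboxylase at the RNA level in control limbs by more than their SDs. That row held 51.1% of the reads of Odc1, so the place of Odc1 in this order is that of 1 of its 2 rows.

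Ornithine decarboxylase 1, Odc1, is the rate-limiting enzyme of putrescine synthesis and is encoded in rn7 on chromosome 6 (40329961 to 40336445, plus strand). Its reads were divided over 2 rows of the same gene, with 51.1% and 48.9% of the sum. In the main row, control limbs ranged from 16.99 to 51.9 CPM with a median of 34.7. The atrophy limbs of animals 1, 2 and 3 had 89.8, 46.8 and 75.2 CPM, so that animal 2 lay within the control range. Recovery limbs had 38.0, 27.7 and 45.2 CPM, inside the control range, and repeated atrophy limbs had 63.5, 113 and 89.4 CPM, all above it. The log2 fold change was 0.98 ± 0.26 (SE) in atrophy (adjusted p = 0.0138) and 1.32 ± 0.26 in repeated atrophy (adjusted p = 0.00096), and 0.09 in recovery (95% interval −0.45 to 0.63, adjusted p = 0.869). In the second row, recovery limbs had 51.1, 52.0 and 50.7 CPM against 22.5 to 52.9 CPM in control (median 31.95). Only the right limb of atrophy animal 2 was above them there. The second row gave 0.69 ± 0.21 in recovery (adjusted p = 0.0532), which passed after rescaling (0.65, adjusted p = 0.0440) and without that limb (0.78, adjusted p = 0.0172). In the main row, after rescaling, the atrophy value was 0.62 and no longer passed (adjusted p = 0.102), while the repeated atrophy value of 0.94 did (adjusted p = 0.00695). The second row passed in atrophy (1.06 ± 0.21, adjusted p = 0.00651) and also after rescaling (0.70, adjusted p = 0.0379). Blocked by animal, its atrophy value did not pass (0.95, adjusted p = 0.178). From recovery to repeated atrophy Odc1 rose by 1.23 ± 0.31 (adjusted p = 0.00898), although its second row did not pass (0.70, adjusted p = 0.054).

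The division between the rows differed from limb to limb, and the control limbs were less spread in the sum (SD 8.57 CPM around 67.4) than in either row (SD 9.08 around 35.1 and 8.83 around 32.3). In the right limb of atrophy animal 2 the main row was at 16.99 CPM and the second at 52.9 CPM, and the sum of 69.9 CPM was close to the control median of 67.6. Summed, control limbs spanned 55.6 to 84.7 CPM. The summed atrophy limbs had 158, 94.6 and 165 CPM, the summed repeated atrophy limbs 171, 183 and 166 CPM, all above the control limbs. Summed recovery limbs had 89.1, 79.7 and 95.9 CPM, overlapping the control limbs at the lower end and the lowest atrophy limb at the upper end. The summed log2 fold change was 1.00 in atrophy (adjusted p = 0.00426), 1.36 in repeated atrophy (adjusted p = 2.24e-05) and 0.39 in recovery (adjusted p = 0.116), a choice of unit made after the values were seen. From atrophy to recovery the main row fell by 0.89 ± 0.31 on the log2 scale (adjusted p = 0.0554) and the sum by 0.61 (adjusted p = 0.0294). The main row passed with rows filtered at a mean of 1 CPM (adjusted p = 0.0411) and without atrophy animal 2 (−1.16, adjusted p = 0.0185) or recovery animal 3 (−1.05, adjusted p = 0.0491).

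The antizyme inhibitor Azin1, a decarboxylase-like protein without activity that binds antizyme and so spares ornithine decarboxylase, lies on chromosome 7 (69654773 to 69681579, minus strand). Control limbs had 39.0 to 70.5 CPM (median 48.1). Atrophy limbs had 142, 73.5 and 110 CPM, recovery limbs 85.01, 89.3 and 108 CPM, and repeated atrophy limbs 115, 180 and 95.5 CPM. These values are of the main row, in which no limb of these 3 groups overlapped the control limbs, although atrophy animal 2 was only just above them. The log2 fold change was 1.10 ± 0.21 in atrophy (adjusted p = 0.00623), 0.94 ± 0.21 in recovery (adjusted p = 0.0139) and 1.36 ± 0.21 in repeated atrophy (adjusted p = 0.000206). Azin1 was the only member that passed the test against control in all 3 conditions, and it also passed in all 3 after rescaling (0.73, 0.89 and 0.98). Blocked by animal it passed in repeated atrophy but not in atrophy (1.01, adjusted p = 0.157) or recovery (0.81, adjusted p = 0.2). The atrophy call was lost without atrophy animal 1 or 3 (adjusted p = 0.09 and 0.0558) and the recovery call without recovery animal 1 or 3 (adjusted p = 0.0538 and 0.0734). Between recovery and atrophy it differed by −0.16 (95% interval −0.70 to 0.38), which leaves room for a change beyond 1.2-fold in either direction. The second row of Azin1, with 10.6% of its reads, overlapped the control limbs in all 3 conditions. That row passed in repeated atrophy (1.04, adjusted p = 0.0356) but not in atrophy (0.89, adjusted p = 0.086) or recovery (1.08, adjusted p = 0.0752).

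The antizymes did not move together. Oaz1 (chromosome 7, 8883855 to 8886316, minus strand), the main antizyme of most tissues, had 267 to 425 CPM in control limbs (median 334). Repeated atrophy limbs had 430.4, 437 and 495 CPM, all above this range. Atrophy limbs had 449.5, 388 and 453 CPM and recovery limbs 259.6, 244 and 278 CPM, so that atrophy animal 2 and recovery animal 3 lay inside it. The log2 fold change of Oaz1 was 0.39 ± 0.13 in atrophy (adjusted p = 0.0444) and 0.47 ± 0.13 in repeated atrophy (adjusted p = 0.0116). Rescaling reduced both to 0.02 and 0.09 (adjusted p = 0.951 and 0.649), so relative to the typical row Oaz1 was not detectably higher, and summing its rows gave an adjusted p of 0.055 in atrophy. In recovery it was −0.33 (adjusted p = 0.128), and −0.38 after rescaling (adjusted p = 0.0425). Oaz1 fell from atrophy to recovery by 0.72 ± 0.16 (adjusted p = 0.0104) and rose again by 0.80 ± 0.16 from recovery to repeated atrophy (adjusted p = 0.00312), while the rescaled values were −0.40 (adjusted p = 0.08) and 0.47 (adjusted p = 0.0283).

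Oaz2 (chromosome 8, 66199694 to 66213514, plus strand), a second antizyme, was steady in control limbs at 303 to 355 CPM (median 321). Atrophy limbs had 222, 311 and 179.6 CPM, with animal 2 again inside the control range. Repeated atrophy limbs had 213, 208 and 246 CPM, all below it, and recovery limbs had 295, 259 and 292 CPM, also below it. Oaz2 fell by 0.49 ± 0.13 in atrophy (adjusted p = 0.017) and by 0.55 ± 0.13 in repeated atrophy (adjusted p = 0.00424) on the log2 scale, and by 0.86 and 0.93 after rescaling. In recovery the value was −0.20 (adjusted p = 0.355). The main row held 81.0% of the reads of Oaz2, and the second row gave −0.04 and −0.17 in the 2 silenced conditions and passed in neither.

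Spermidine/spermine acetyltransferase 1, Sat1 (chromosome X, 40158354 to 40161642, plus strand), marks polyamines for export or oxidation and had the largest fold change of the 9 members in both silenced conditions. Control limbs spread widely, from 12.5 to 110 CPM with a median of 31.4. Atrophy limbs had 291, 144 and 311 CPM and repeated atrophy limbs 366, 261 and 163 CPM, all above every control limb. Recovery limbs had 34.5, 28.2 and 69.1 CPM, the highest in animal 3, whose limb also had the most RNA of silenced-fibre markers (618 CPM) of the recovery limbs. The log2 fold change was 2.76 ± 0.53 in atrophy (adjusted p = 0.00623), 2.85 ± 0.53 in repeated atrophy (adjusted p = 0.00065) and 0.26 ± 0.53 in recovery (95% interval −0.84 to 1.36). Between the left limbs, Sat1 fell by 2.50 ± 0.64 from atrophy to recovery (adjusted p = 0.0162) and rose by 2.59 ± 0.64 from recovery to repeated atrophy (adjusted p = 0.00779).

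The control limbs of Sat1 were not alike across the cohorts of animals. Right limbs of the recovery animals had 14.4, 20.1 and 12.5 CPM, those of the repeated atrophy animals 47.1, 41.3 and 25.9 CPM, and those of the atrophy animals 31.4, 86.4 and 110 CPM. Each recovery limb was above the right limb of its own animal, by 1.203, 0.47 and 2.37 on the log2 scale, a mean of 1.35 for which the blocked fit gave an adjusted p of 0.172. With the block, the fall from atrophy to recovery was −0.45 (adjusted p = 0.88) and the rise to repeated atrophy 1.38 (adjusted p = 0.233). How far Sat1 had returned at recovery therefore depends on whether a limb is set against all 9 right limbs or against its own partner.

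**Figure D2:**
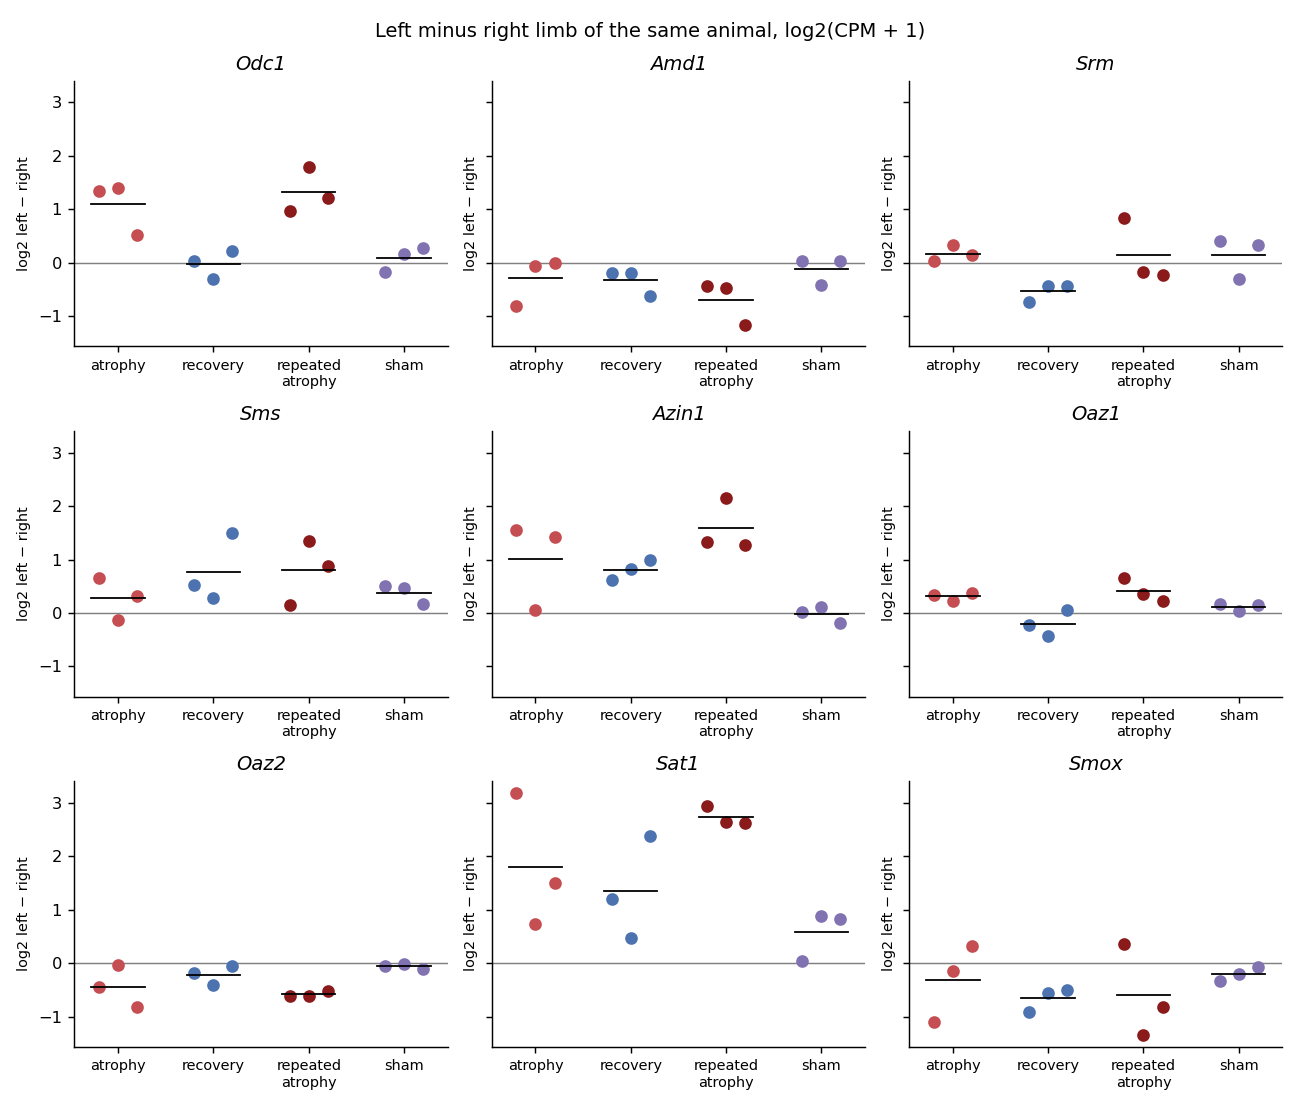
Left minus right limb of the same animal (vertical axis, log2 of CPM + 1) for each of the 12 animals, 1 point per animal, with the mean of each cohort as a line. Sat1 was higher on the left in 12 of 12 animals, the main row of Oaz2 lower on the left in 12 of 12, and Azin1 higher in 9 of 9 TTX animals.

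Spermine oxidase, Smox (chromosome 3, 118751623 to 118765707, plus strand), which oxidises spermine back to spermidine, was low throughout. Control limbs had 7.88 to 13.4 CPM (median 10.0). Recovery limbs had 4.61, 6.47 and 5.30 CPM, all below the control limbs. The difference of −0.84 ± 0.26 in recovery did not pass (adjusted p = 0.0536), whereas it passed after rescaling (−0.88, adjusted p = 0.0495) and in 4 other settings (12 right limbs as control, a filter at a mean of 1 CPM, no trend and summed rows, adjusted p = 0.0350 to 0.0493), as well as without the right limb of recovery animal 3 (adjusted p = 0.0447). Values of 4.93, 11.8 and 11.5 CPM in atrophy and 11.9, 4.68 and 6.03 CPM in repeated atrophy scattered over and below the control range, with log2 fold changes of −0.22 (adjusted p = 0.582) and −0.51 (adjusted p = 0.135), the latter at −0.84 after rescaling (adjusted p = 0.0372).

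S-adenosylmethionine decarboxylase 1, Amd1 (chromosome 20, 43695784 to 43711477, minus strand), supplies the aminopropyl group and is the second regulated step of the pathway. Control limbs had 61.9 to 94.3 CPM (median 72.7). Repeated atrophy limbs had 45.9, 47.3 and 31.8 CPM, all below the control limbs. Atrophy limbs scattered, with 48.3, 90.9 and 68.0 CPM, and recovery limbs had 70.5, 63.1 and 51.0 CPM. Amd1 fell by 0.85 ± 0.18 in repeated atrophy (adjusted p = 0.00142), and the values of −0.16 in atrophy (adjusted p = 0.554) and −0.29 in recovery (adjusted p = 0.318) did not pass. Directly compared, repeated atrophy differed from atrophy by −0.69 ± 0.22 (95% interval −1.14 to −0.24), for which the adjusted p was 0.419, and from recovery by −0.56 ± 0.22 (adjusted p = 0.0599, and 0.0268 after rescaling to −0.89). Odc1 and Amd1, the decarboxylases of the pathway, were thus DEGs in opposite directions in repeated atrophy.

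Spermidine synthase, Srm (chromosome 5, 159025919 to 159029077, plus strand), had 19.9 to 47.9 CPM in control limbs (median 28.5). Recovery limbs had 13.5, 15.7 and 14.5 CPM, closely grouped and below every control limb. Atrophy limbs had 32.0, 36.1 and 52.8 CPM and repeated atrophy limbs 39.2, 29.9 and 30.7 CPM. Right limbs of the recovery animals had 23.1, 21.5 and 19.9 CPM. Those of the atrophy animals had 31.0, 28.5 and 47.9 CPM, and those of the repeated atrophy animals 21.6, 33.6 and 36.3 CPM. Srm fell by 0.91 ± 0.22 in recovery vs. control (adjusted p = 0.0215) and by 1.38 ± 0.28 in recovery vs. atrophy (adjusted p = 0.00735), and it rose by 1.13 ± 0.28 from recovery to repeated atrophy (adjusted p = 0.00717). Blocked by animal these values were smaller, at −0.53, −0.70 and 0.67, and none passed (adjusted p = 0.244, 0.617 and 0.247). The values of 0.47 in atrophy (adjusted p = 0.136) and 0.22 in repeated atrophy (adjusted p = 0.492) did not pass, and the latter was −0.14 after rescaling.

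Spermine synthase, Sms (chromosome X, 37516949 to 37570825, plus strand), had 13.4 to 33.3 CPM in control limbs (median 17.4). Its repeated atrophy limbs had 23.3, 46.0 and 32.3 CPM, overlapping the control limbs, and the rise of 0.74 ± 0.25 passed (adjusted p = 0.0286) but not after rescaling (0.37, adjusted p = 0.217). Atrophy limbs had 38.3, 30.3 and 24.8 CPM (0.65 ± 0.25, adjusted p = 0.0669) and recovery limbs 23.0, 20.8 and 39.2 CPM (0.45 ± 0.25, adjusted p = 0.275).

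Promoter sequence is shown for a member that rose with silencing from the synthesis side, a member that rose from the breakdown side and the synthase that fell in recovery. Windows of 250 bases before to 50 after the start site were read from RefSeq (GRCr8) for 8 of the 9 members, Azin1 being the exception. Capitals mark the letters CACGTG, the E-box that Myc and Max bind, and TGACG, the core letters of the cAMP response element, on either strand.
Odc1 (chr6:46058415-46058714, plus strand): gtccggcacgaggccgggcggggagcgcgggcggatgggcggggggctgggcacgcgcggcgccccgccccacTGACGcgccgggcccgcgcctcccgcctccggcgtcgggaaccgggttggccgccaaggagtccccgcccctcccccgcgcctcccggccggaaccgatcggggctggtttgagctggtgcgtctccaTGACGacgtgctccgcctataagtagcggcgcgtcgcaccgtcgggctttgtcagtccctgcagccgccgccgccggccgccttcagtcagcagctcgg
Sat1 (chrX:44007839-44008138, plus strand): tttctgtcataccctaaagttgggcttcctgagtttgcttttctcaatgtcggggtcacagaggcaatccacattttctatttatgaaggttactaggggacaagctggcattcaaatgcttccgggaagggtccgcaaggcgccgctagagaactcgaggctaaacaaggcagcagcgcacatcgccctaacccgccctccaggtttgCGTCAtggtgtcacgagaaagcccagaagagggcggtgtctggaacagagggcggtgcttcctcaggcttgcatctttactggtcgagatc
Srm (chr5:164308752-164309051, plus strand): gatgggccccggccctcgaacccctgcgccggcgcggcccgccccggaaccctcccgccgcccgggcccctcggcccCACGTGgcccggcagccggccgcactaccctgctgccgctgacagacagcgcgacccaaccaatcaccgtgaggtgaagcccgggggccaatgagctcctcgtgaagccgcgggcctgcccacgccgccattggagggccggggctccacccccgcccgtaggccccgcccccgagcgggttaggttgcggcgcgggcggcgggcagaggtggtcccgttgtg
The E-box was found in the windows of Srm and Oaz1 (2 of 8) and in 6.42% of all 33469 windows. TGACG or its reverse complement was found in 5 of 8 (Amd1, Oaz1, Odc1, Sat1, Sms) and in 21.2% of all windows, starting 177 and 49 bases before the start site in Odc1 and 41 bases before it in Sat1. The window of Odc1 had no E-box, which says only that these letters are not there. TATAAA, the core promoter box, was found in Amd1 and Oaz1 (2 of 8, and 14.2% of all windows). These matches describe the letters of the windows and were not compared with the expression values.

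In atrophy vs. control, 5 of 9 members were DEGs (4 higher, Sat1, Azin1, Odc1 and Oaz1, and 1 lower, Oaz2), where 22.6% of the 14031 rows tested were DEGs. The median log2 fold change of the 9 members was 0.47, against 0.22 over all rows. Rescaling left 3 of 9 (Sat1, Azin1 and Oaz2), with 9.4% of rows called, and lowered the members' median to 0.11. Blocked by animal, which sets a left limb against its own right limb, 0 of 9 members passed and 0 of 14031 rows (0%) did (limma, 4 members and 2678 rows at an unadjusted p under 0.05). The blocked values of Sat1 (1.80, adjusted p = 0.151), Azin1 (1.01, adjusted p = 0.157), Odc1 (1.09, adjusted p = 0.149), Oaz1 (0.31, adjusted p = 0.295) and Oaz2 (−0.44, adjusted p = 0.21) kept their signs. Without atrophy animal 1 or without atrophy animal 3 the count was 0 (limma, 6 members at an unadjusted p under 0.05 each time), where 0.0285% and 0% of rows were DEGs, and without animal 2 it was 5, where 31.5% were.

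In recovery vs. control, 2 of 9 members were DEGs (Azin1 higher, Srm lower), where 7.73% of rows were. The members' median was −0.20, against 0.02 over all rows. Rescaling gave 4 of 9, with Oaz1 and Smox added on the lower side, and 12.4% of rows, with a members' median of −0.25. Blocked by animal, neither call held (Azin1 0.81, adjusted p = 0.2, and Srm −0.53, adjusted p = 0.244, in limma), 4 members had an unadjusted p under 0.05, and 9 rows of the table (0.0641%) passed. The count was 0 without recovery animal 1 or 3 (limma, 3 and 4 members at an unadjusted p under 0.05), where 1.48% and 2.29% of rows were DEGs, and 1 (Azin1) without recovery animal 2, where 3.48% were.

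Repeated atrophy vs. control gave the most calls, with 7 of 9 members (5 higher, 2 lower), where 34.3% of rows were DEGs. Their median was 0.47, against 0.20 over all rows. With the block, 27.1% of rows and 5 of 9 members passed, namely Sat1 (2.73, adjusted p = 0.00351), Azin1 (1.58, adjusted p = 0.00484), Odc1 (1.32, adjusted p = 0.00418), Amd1 (−0.69, adjusted p = 0.0321) and Oaz2 (−0.59, adjusted p = 0.0258), while Sms (0.80, adjusted p = 0.0578) and Oaz1 (0.41, adjusted p = 0.0696) did not. These 5 also passed after rescaling, where Smox was the other member called, 25.1% of rows were DEGs and the members' median was 0.09. Oaz1 and Sms were lost without repeated atrophy animal 3 (26.9% of rows called) and Sms without animal 2 (21.6%), and Smox was added without animal 1 (31.9%). In every one of the 3 animals the left limb was above the right limb for Odc1, Azin1 and Sat1 and below it for Amd1 and Oaz2.

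**Figure D3:**
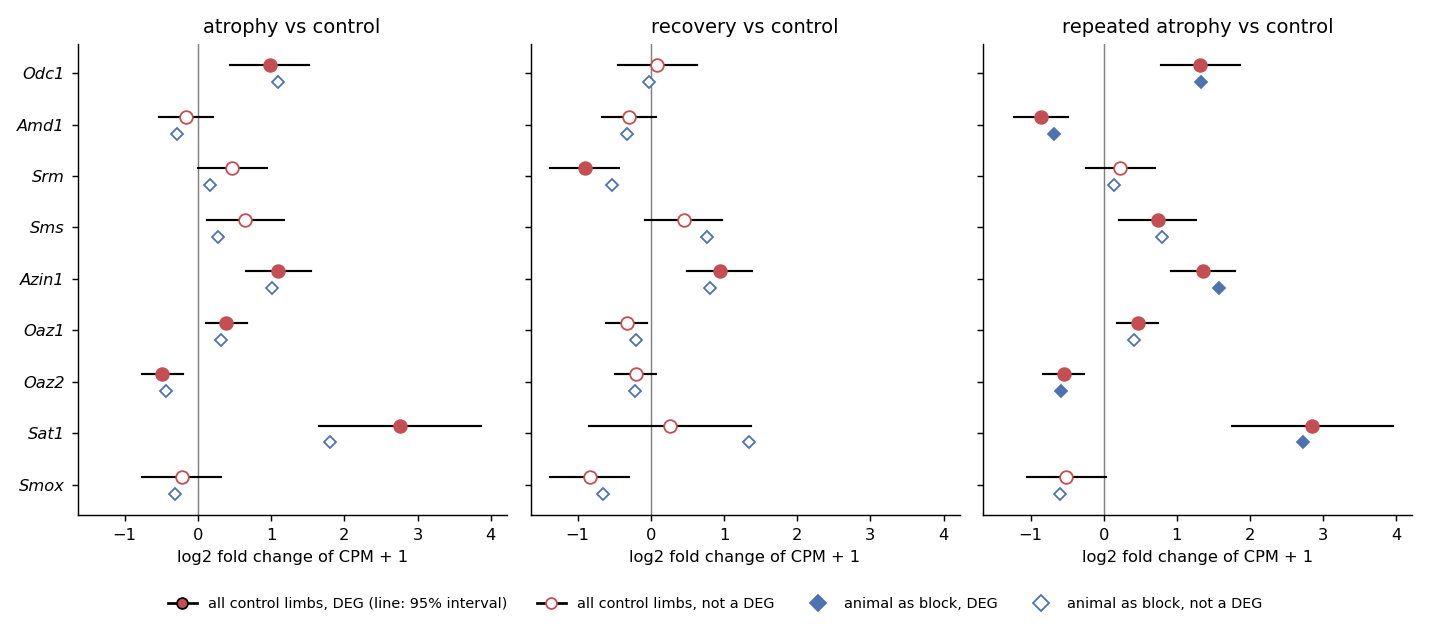
Log2 fold change vs. control (horizontal axis, CPM + 1) of the 9 genes in atrophy, recovery and repeated atrophy. Circles with lines give the fit over all control limbs with its 95% interval, diamonds the blocked fit, and filled symbols are DEGs: 5, 2 and 7 circles and 0, 0 and 5 diamonds are filled.

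Between the left limbs, 3 of 9 members fell from atrophy to recovery (Sat1, Srm and Oaz1), where 17.9% of rows were DEGs, and 4 of 9 rose from recovery to repeated atrophy (Sat1, Oaz1, Odc1 and Srm), where 27.2% were. Without atrophy animal 2 the first step had 5 members, with Odc1 added on the lower and Oaz2 on the higher side, where 24.9% of rows were DEGs. It had 0 without atrophy animal 3 (limma, 4 members at an unadjusted p under 0.05), where 1.74% of rows were, and 1 (Srm) without recovery animal 2, where 4.05% were. Sat1 was also lost from it without atrophy animal 1 or recovery animal 1, and Odc1 from the second count without recovery animal 2. With the animal as a block, 0 of 9 passed in either step, where 0.0143% and 0.0855% of rows did (limma, 3 and 4 members at an unadjusted p under 0.05). The blocked values were −0.70 for Srm (adjusted p = 0.617) and −0.51 for Oaz1 (adjusted p = 0.612) in the first step, and 0.67 for Srm (adjusted p = 0.247), 0.61 for Oaz1 (adjusted p = 0.183) and 1.35 for Odc1 (adjusted p = 0.0973) in the second. Repeated atrophy and atrophy differed in 0 of 9 members (limma, 1 member at an unadjusted p under 0.05, Amd1), where 0.0356% of rows were DEGs. For Sat1 this difference was 0.09 with a 95% interval of −1.26 to 1.44, and for Odc1 0.33 with an interval of −0.32 to 0.99, so neither equality nor a further rise at the second silencing can be read from these limbs. These comparisons share limbs with those against control.

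Sham surgery moved no member past the threshold. In sham left vs. control limbs 0% of 13822 rows were DEGs, and in sham left vs. sham right limbs, with the animal as a block, 0% of 13483 rows were (limma, 1904 and 576 rows and 0 and 2 members at an unadjusted p under 0.05). Odc1 was at 31.6, 44.7 and 63.4 CPM in sham left limbs and 36.0, 39.6 and 52.4 CPM in sham right limbs. Sat1 was at 45.7, 45.9 and 219 CPM on the left and 44.2, 24.3 and 123 CPM on the right, and both limbs of sham animal 3, the only one at the repeated atrophy time, exceeded every control limb, so that animal and time cannot be told apart. The same animal had the highest Amd1 of all 24 limbs, at 141 and 138 CPM. Sat1 differed between sham left and control limbs by 1.17 with a 95% interval of −0.20 to 2.54, which is wide enough to hold a change of several-fold. Left minus right, Sat1 was 0.59 ± 0.18 (SE) and Sms 0.38 ± 0.13 in the sham animals (adjusted p = 0.936 for both).

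Ratios within a limb, with rows of a symbol summed, compare members without regard to library scaling and are given as values without a test. Odc1 to Oaz1 was 0.202 ± 0.034 (SD, n = 9) in control limbs, 0.315 ± 0.065 in atrophy, 0.329 ± 0.010 in recovery and 0.377 ± 0.044 in repeated atrophy (n = 3 each). The recovery and repeated atrophy limbs lay above all control limbs. Azin1 to Oaz1 was 0.167 ± 0.041 in control and 0.400 ± 0.012 in recovery limbs, more closely grouped than the 0.272 ± 0.066 of atrophy and the 0.312 ± 0.121 of repeated atrophy. The recovery limbs thus held the largest mean share of inhibitor to antizyme RNA of the groups. Amd1 to Odc1 was 1.13 ± 0.193 in control, 0.559 ± 0.351 in atrophy, 0.705 ± 0.150 in recovery and 0.239 ± 0.042 in repeated atrophy. Smox to Sat1 was 0.373 ± 0.206 in control, 0.045 ± 0.033 in atrophy, 0.147 ± 0.077 in recovery and 0.029 ± 0.010 in repeated atrophy. Sham left limbs stood at 0.224 ± 0.059, 0.181 ± 0.042, 1.10 ± 0.254 and 0.169 ± 0.123 for the same ratios in this order.

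**Figure D4:**
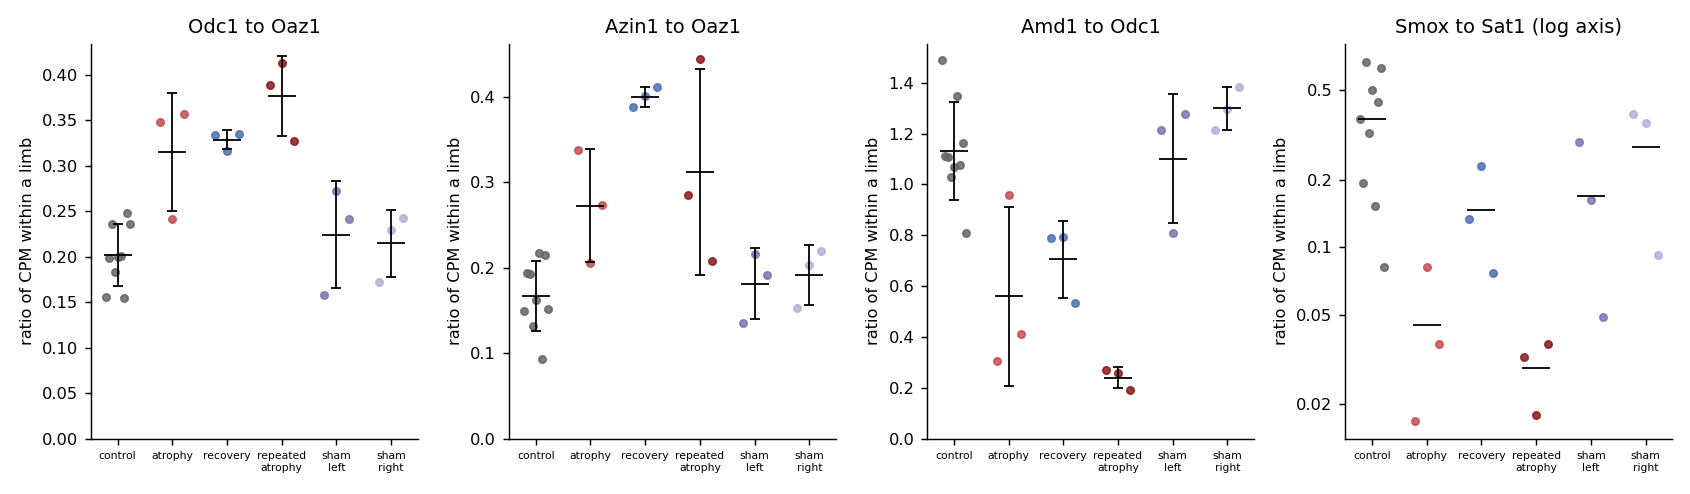
Ratios of CPM within a limb (vertical axes, from 0 except the log axis of Smox to Sat1), 1 point per limb, with the group mean and, on the linear axes, the SD. The 3 repeated atrophy limbs lie between 0.191 and 0.268 for Amd1 to Odc1, below the lowest control limb at 0.809.

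Around the core pathway, 46 of 47 listed genes of supply, methionine salvage, transport, hypusine formation, transcriptional control and other catabolism and antizymes were in the table. DEGs among them numbered 10 higher and 0 lower in atrophy, 5 higher and 3 lower in recovery, and 12 higher and 1 lower in repeated atrophy vs. control. These are 21.7%, 17.4% and 28.3% of the listed genes, against 22.6%, 7.73% and 34.3% of all rows, and the list medians were 0.21, −0.02 and 0.17. Among those higher in recovery, Arg1 and Agmat were near the floor. Their means were 1.33 and 0.51 CPM in recovery against 0.39 and 0.04 CPM in control. Blocked by animal, 0 listed genes were DEGs in atrophy or recovery vs. control, where 0% and 0.0641% of all rows were. After rescaling, DEGs in atrophy were 1 in the hypusine list and 1 in the transport list (Atp13a2, lower), where 9.4% of all rows were. In recovery they were 3 each of the supply, salvage and transport lists and 2 of the hypusine list (12.4% of rows). In repeated atrophy they were 1 each of supply and hypusine, 4 of transport and 3 of transcriptional control (25.1% of rows). Values are given for the 10 genes with the largest fold change among DEGs whose limbs did not overlap control.

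Of the supply genes (10 listed), Gatm, which uses arginine to start creatine synthesis, rose by 1.76 ± 0.29 in recovery (21.1 ± 3.0 CPM, against 5.6 ± 1.4 in control, SD; adjusted p = 0.00287). Asl, which releases arginine in the urea cycle, rose by 0.89 ± 0.24 in atrophy (adjusted p = 0.0164, and 0.0789 after rescaling) and by 1.19 ± 0.24 in repeated atrophy (adjusted p = 0.00121). Mat2a and Mat2b form the enzyme that makes S-adenosylmethionine, the substrate of Amd1. Mat2a rose in recovery (0.69 ± 0.20, adjusted p = 0.0393), and Mat2b rose in atrophy (0.45 ± 0.14), recovery (0.48 ± 0.14) and repeated atrophy (0.71 ± 0.14, adjusted p = 0.0316, 0.0472 and 0.00125), of which only the recovery value passed after rescaling.

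Eif5a, the translation factor that carries hypusine, an amino acid made from spermidine, was at 571 ± 128 CPM in atrophy and 587 ± 25.9 CPM in repeated atrophy, against 324 ± 61.6 CPM in control and 283 ± 43.6 CPM in recovery. It rose by 0.81 ± 0.17 (adjusted p = 0.00725) and 0.88 ± 0.17 (adjusted p = 0.000943). Between the left limbs, Eif5a and the hypusine enzymes Dhps and Dohh were all 3 lower as DEGs from atrophy to recovery (17.9% of all rows were DEGs). All 3 were higher from recovery to repeated atrophy (27.2% of rows). After rescaling 1 gene of this list was called in each step, and blocked by animal 0 were. Against control, the enzymes passed in other comparisons than Eif5a did, and this difference was not tested. Dhps rose by 0.40 ± 0.13 in repeated atrophy (adjusted p = 0.0259, and 0.908 after rescaling), and Dohh fell by 0.91 ± 0.27 in recovery (adjusted p = 0.0473).

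Among the transport genes, Atp13a3, a polyamine transporter of the P5B family, rose by 1.32 ± 0.39 in atrophy (adjusted p = 0.0225, and 0.072 after rescaling) and by 1.63 ± 0.39 in repeated atrophy (adjusted p = 0.00366). Its relative Atp13a2, which moves polyamines out of lysosomes, fell by 0.90 ± 0.25 in recovery (adjusted p = 0.0388) and by 1.03 ± 0.25 in repeated atrophy (adjusted p = 0.00474). Slc3a2, the heavy chain of several amino acid transporters, rose by 0.90 ± 0.22 in atrophy (adjusted p = 0.0109, and 0.149 after rescaling) and fell by 0.74 ± 0.22 in recovery (adjusted p = 0.0466). Blocked by animal, no atrophy or recovery value of these 10 genes passed, and in repeated atrophy Asl, Mat2b, Eif5a, Dhps, Atp13a2 and Atp13a3 did. The atrophy value of Atp13a2 was −0.68 (adjusted p = 0.0593, and 0.0256 after rescaling).

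Myc, of which Odc1 is a textbook target, and its partner Max were named after their values were seen. Myc was at 31.6 ± 11.7 CPM in atrophy and 29.2 ± 3.9 CPM in repeated atrophy against 10.8 ± 9.3 CPM in control, a rise of 1.70 ± 0.45 (adjusted p = 0.0153) and 1.65 ± 0.45 (adjusted p = 0.00921). Sham left limbs ranged from 6.37 to 72.3 CPM and sham right limbs from 3.49 to 58.4 CPM, and sham left vs. control did not pass (1.18, adjusted p = 0.407). Max rose by 0.80 ± 0.20 (adjusted p = 0.0109) and 0.88 ± 0.20 (adjusted p = 0.00237), from a mean of 2.91 CPM in control. After rescaling, neither passed in atrophy (adjusted p = 0.0500009 and 0.0777), and blocked by animal neither did (adjusted p = 0.233 and 0.26), while both passed in repeated atrophy in either fit.

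**Figure D5:**
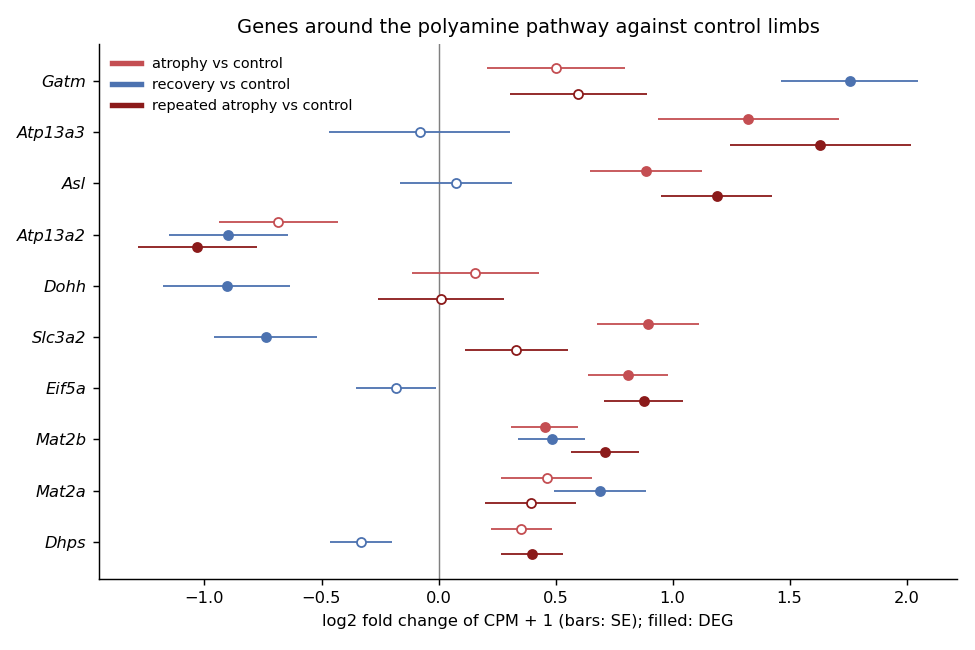
Log2 fold change vs. control (horizontal axis, CPM + 1; bars are the SE) of 10 genes around the pathway in atrophy, recovery and repeated atrophy, with DEGs filled. Gatm stands apart in recovery at 1.76, and Atp13a2 lies below 0 in all 3 comparisons.

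Markers of other cell types moved with the conditions. Markers of satellite cells and myoblasts (3 of 3 present) summed to 46.2 to 95.8 CPM in control, 227, 63.2 and 235 CPM in atrophy and 180 to 274 CPM in repeated atrophy. Of these, Myf5 and Myod1 were higher as DEGs in both silenced conditions vs. control, and Pax7 was a DEG in neither. Fibroblast markers (4 of 4) summed to 954 to 1796 CPM in recovery against 181 to 496 CPM in control, and macrophage markers (6 of 6) to 91.6 to 195 CPM against 34.1 to 127 CPM. Of the macrophage markers, 3 of 6 were DEGs in recovery vs. control. Their sums in sham limbs, 86.6 to 162 CPM on the left and 53.6 to 156 CPM on the right, overlapped those of recovery. Cell division markers (Mki67, Top2a and Ccnb1) were all 3 higher as DEGs in recovery vs. control, with a sum of 5.67 to 11.3 CPM in recovery against at most 4.28 CPM in control, and the left limb of atrophy animal 1 had 21.8 CPM. The part of all these markers in the levels of the polyamine genes was not tested, and in whole muscle fewer cells of a type and less RNA per cell cannot be told apart.

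Rows whose log2(CPM + 1) followed a member most closely over the 24 limbs were found among 6766 rows with a mean of at least 10 CPM. For Sat1 these were Eif4a1 (Pearson r = 0.971), Smarce1 (0.966) and Nop16 (0.963), and for Odc1 they were Eprs (0.883), Tmem183a (0.878) and Wipi1 (0.876). For Amd1 they were Nfil3 (0.878), Fam220a (0.848) and Txnip (0.839), and for Smox RGD1560212 (0.864), Dgcr6 (0.844) and Slc25a38 (0.839). The 24 limbs share 12 animals and the treatment groups, so these values describe likeness of pattern only.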

How the data were processed

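TA RNA of both limbs of 12 rats was sequenced by the authors as paired-end poly-A libraries with a strand-marking kit. Contaminant reads were removed with Bowtie2 2.2.5, reads were aligned to rn7 with STAR, and Partek Flow made the table. The methods state median-of-ratios scaling, but the deposited values are CPM, since every column sums to 1000000. Rows are transcripts. Of the low values, 87.2 to 89.0% were whole reads (tolerance 0.01 read), so counts were not recovered and no count test was run. Of 27 value columns, 3 that matched no sample were not used, and 28 duplicate rows were dropped from 14271. No column of the authors' own comparisons was used.

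The fits used log2(CPM + 1), rows above 0 in at least 3 samples, and limma 3.58.1 (R 4.3.3, intensity trend) with 4 groups and 18 samples in 1 fit and no block. The sham fits were separate, and sham left vs. right limbs had the animal as a block. The script was tested on simulated data. Left and right limbs come from the same animals, so the animal numbers pair them, and their deviations from the group means correlated by −0.321 to 0.841 over the 12 animals (10619 rows). The alternatives were a pseudocount of 0.1, a filter at a mean of 1 CPM or none, no trend, rescaling, 12 right limbs as control, the block, and each library left out. Rows summed per symbol, and 2 libraries left out together, were added after seeing the data. The members and lists were chosen with earlier results of these data known. Genes outside the members were named where they were DEGs with limbs apart from control and a mean of at least 10 CPM in 1 of the groups, up to 10 by largest fold change. The values implied a depth of 18.9 to 30.9 M counted units (M, 1000000), not sequenced reads, and 3 animals per group limit the precision.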

Additional observations from a re-analysis of the deposited data

Results flagged for a closer look

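Srm differed in direction between cohorts when each left limb was set against the right limb of its own animal. Its mean left minus right difference was 0.1708 on the log2 scale in atrophy (0.04, 0.33 and 0.14 in animals 1, 2 and 3) and −0.5273 in recovery (−0.73, −0.43 and −0.42). Every atrophy animal was higher on the left and every recovery animal lower. The fit across all rows with the animal as a block put the difference between these cohorts at −0.70 with an adjusted p of 0.617 in limma, so the opposite signs did not pass a test of the difference. 

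In the second row of Odc1, the right limb of atrophy animal 2 had 52.94 CPM, apart from the other 8 control limbs at 22.5 to 35.3 CPM. The same limb had the lowest main row of Odc1 (16.99 CPM), and its summed rows (69.9 CPM) were inside the range of the other control limbs. Without it the second row was 0.78 higher in recovery than in control (limma, adjusted p = 0.0172), where it had not passed with it (0.69, adjusted p = 0.0532). Its gap to the next limb was 0.58 of the range of the group, above the limit that chance passes in about 1 of 20 groups, and 21 groups were examined.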

How the results depend on the processing

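Alternatives were run for 37 fold changes of members, those of all 9 in the 3 comparisons with control and 10 between left limbs (of Odc1, Amd1, Srm, Oaz1 and Sat1). The 21 that passed are all the members' calls, and 0 of them changed sign. The replicate block, which pairs limbs by animal, kept 5 and lost 16 of the 21. It took the number of members called to 0 in atrophy vs. control, 0 in recovery vs. control, 0 in recovery vs. atrophy and 0 in repeated atrophy vs. recovery, and left 5 in repeated atrophy vs. control. Rescaling kept 16 and lost 5, and gave 3 members in atrophy and 4 in recovery vs. control. The cause was not tested. Pseudocount, 12 right limbs and summed rows each lost 1 of the 21, and the filters and the fit without a trend lost 0. Leaving out atrophy animal 2 on the left together with atrophy animal 3 on the right gave 5 members in recovery vs. atrophy (27.7% of all rows called), 6 in repeated atrophy vs. recovery (31.3%, Amd1 and Oaz2 added on the lower side) and 6 in atrophy vs. control (36%, Srm added). Rescaling also gave 6 in repeated atrophy vs. recovery, with the same genes added and 21.8% of rows called. Calls were gained too, for Smox in recovery (in the report), for Sms in atrophy with 12 right limbs or the filter at 1 CPM, and for Odc1 in recovery vs. atrophy. Leaving out 1 library at a time gave 0 to 6 members in atrophy vs. control (0% to 31.5% of rows called), 0 to 3 in recovery vs. control (1.48% to 8.7%), 5 to 8 in repeated atrophy vs. control (21.6% to 37.4%), 0 to 5 in recovery vs. atrophy (1.74% to 24.9%) and 3 to 5 in repeated atrophy vs. recovery (15% to 26%). Values that changed sign had not passed. In atrophy, leaving out 1 library at a time gave −0.379 to 0.0695 for Amd1 and −0.410 to 0.142 for Smox, each with the sign changed only without atrophy animal 1. In recovery it gave −0.0645 to 0.279 for Odc1, below 0 without the right limb of atrophy animal 2 (−0.0291) or recovery animal 3, and −0.114 to 0.517 for Sat1, below 0 only without recovery animal 3. With the replicate block Odc1 was −0.0245 in recovery. Srm was −0.14 in repeated atrophy after rescaling. With 3 animals per group, leaving out 1 library leaves 2 in its group, and CPM without counts gives no counting error.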
